A study of Mus musculus with 15 samples.

Results

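The 10 elastic fibre genes Eln, Fbn1, Fbn2, Mfap5, Ltbp4, Fbln1, Fbln2, Fbln5, Lox and Loxl1 were taken by symbol from the 44674 genes of the count table, and their expression was compared across the cultured mouse populations of the study. All 10 were found, and all 10 were among the 19401 genes that passed the filter on low counts. Bulk RNA-seq of 15 libraries covered 8 populations, labelled as genotype WT. P0 Emcn+ and P0 Emcn− bone marrow endothelial cells (BMECs) and the P1, P2 and P3 passages of Emcn− BMECs had 2 libraries each. Lung cells, which the study describes as endothelial, and bone marrow mesenchymal stromal cells (BM MSC) also had 2 libraries each. P4 Emcn− BMECs had 1 library. By the study's methods, BMECs came from tamoxifen-induced Tie2-CreERT2;Rosa26-tdTomato mice, in which Cre is driven by the promoter of Tek, and were sorted as CD45− tdTomato+ cells from whole bone marrow cultured in endothelial medium. BM MSC came from Osx-Cre;Rosa26-tdTomato mice, in which tdTomato marks cells with a history of Osx (Sp7) expression, and were grown in MSC medium. Emcn (endomucin) is a surface sialomucin used to split the sorted endothelial cells. That the lung cells were Emcn− is stated by the study's text and not by the sample labels, and the labels give no age for the mice.

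Elastic fibres give vessel walls, lung and skin their recoil. They are built from a core of cross-linked elastin (Eln), laid down on a scaffold of microfibrils whose backbone is fibrillin-1 and fibrillin-2 (Fbn1, Fbn2). Mfap5 (MAGP-2) is a small glycoprotein that binds fibrillins, and Ltbp4 binds latent TGF-β and helps to deposit elastin onto microfibrils. The fibulins Fbln1, Fbln2 and Fbln5 bind elastin and basement membrane proteins, Fbln5 being needed for fibre assembly, and the lysyl oxidases Lox and Loxl1 cross-link elastin and, for Lox, fibrillar collagen. In vessels, smooth muscle cells and fibroblasts make most of this matrix, and arterial endothelial cells also contribute to the elastic lamina beneath them.

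Library totals ran from 9914620 counts in P0 Emcn− replicate 2 to 39718807 in P0 Emcn− replicate 1, so that 3 counts, the limit that a count of 0 allows, corresponded to 0.0755 to 0.303 CPM, computed on the library totals. These limits cover counting error only. The labels give 4 batches: P0 and lung libraries of the same replicate number share a batch, replicate 1 of P1 to P3 shares a batch with P4, and replicate 2 of P1 to P3 shares a batch with both BM MSC libraries. P0 or lung libraries share no batch with passaged or BM MSC libraries, so that for comparisons between them batch and population cannot be told apart. The populations were checked against 5 marker lists. The 10 endothelial markers summed to 10626 to 12682 CPM in P0 Emcn+ BMECs, 69.9 to 275 CPM in P0 Emcn− BMECs and 44.8 to 70.4 CPM at P1 to P4. The 9 fibroblast markers summed to 246 to 331, 17734 to 23211 and 5097 to 7487 CPM in the same order. Cdh5, which encodes VE-cadherin, was between 0.0564 and 2.33 CPM at P1 to P4. At P1 to P4 Tek, which encodes the receptor Tie2, had 14.95 to 40.3 CPM, Pecam1 (CD31) 10.7 to 14.3 and Kdr, a VEGF receptor, 7.96 to 30.1. The rest of the endothelial list was lower in these cells. Tie1 had 0.0825 to 0.446 CPM, Cldn5 0 to 0.430, Erg 0.0564 to 0.682 and Esam 0.0370 to 0.538. Egfl7 had 1.25 to 2.19 and Emcn 0.925 to 3.68 CPM. The endothelial list also differed between replicates 1 and 2, at 275 and 69.9 CPM in P0 Emcn− BMECs, 166 and 622 in lung and 42.7 and 362 in BM MSC. The fibroblast markers summed to 13883 and 14684 CPM in lung. Only in the P0 Emcn+ libraries was the endothelial sum above the fibroblast sum. Endothelial names of the other populations are those of the study and were not drawn from these lists. In bulk RNA, fewer cells of a type and less RNA per cell cannot be told apart.

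The promoters of 2 fibulins are shown because, between the sorted P0 fractions, Fbln1 was called lower in Emcn+ cells, while Fbln5 was the member that was not called. The RefSeq promoter table (GRCm38.p6) held 9 entries for 5 of the 10 members, of which 2 each for Fbln5 and Fbln1. The sequences printed are of the first entry of each gene and are the 250 bases before the annotated transcript start, 5′ to 3′ on the strand of the gene, with GC boxes (GGGCGG on either strand) in capitals.
Fbln5, chr12:101819120-101819369, minus strand: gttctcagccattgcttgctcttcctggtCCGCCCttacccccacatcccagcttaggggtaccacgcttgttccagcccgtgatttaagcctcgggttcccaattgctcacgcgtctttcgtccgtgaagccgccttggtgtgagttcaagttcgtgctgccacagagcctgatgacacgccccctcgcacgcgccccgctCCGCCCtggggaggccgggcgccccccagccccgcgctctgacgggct
Fbln1, chr15:85205699-85205948, plus strand: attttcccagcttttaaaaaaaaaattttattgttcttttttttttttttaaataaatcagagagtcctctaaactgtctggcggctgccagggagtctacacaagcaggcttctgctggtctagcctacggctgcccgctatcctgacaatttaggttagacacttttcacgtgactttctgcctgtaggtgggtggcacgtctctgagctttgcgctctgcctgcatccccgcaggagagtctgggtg
The printed Fbln5 entry had a GC content of 65.2% and 2 GC boxes, and the printed Fbln1 entry had 46.4% and 0, beside a median of 52.4% over all 32851 promoters of the table. The other entries turned this around, with 49.6% and 0 GC boxes for Fbln5 (chr12:101818485-101818734) and 62.4% and 1 GC box for Fbln1 (chr15:85205758-85206007). For Fbln5 the bases after neither RefSeq start matched the start of a GENCODE transcript, while both Fbln1 entries did. A GC box was present in 32.7% of all promoters. The TATA box TATAAA (12.4% of all promoters), the TEAD motif GGAATG (12.6%) and the AP-1 motif TGANTCA (6.75%), each searched on both strands, were in none of the 9 member entries. These matches are a description of the letters in the window.

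Elastin itself was a minor transcript. Eln (ENSMUSG00000029675, chromosome 5 from 134702593 to 134747323 on the minus strand in GRCm38) had 67.7 and 46.8 CPM in P0 Emcn− BMECs, replicates 1 and 2, against 0.475 and 1.55 in the P0 Emcn+ fraction. The P1 libraries had 7.56 and 8.68 CPM, the P2 libraries 7.21 and 7.09, the P3 libraries 5.62 and 7.11 and the P4 library 6.87. The passaged libraries thus sat below both P0 Emcn− libraries, with no overlap, and both P1 libraries lay above those of P2, P3 and P4, which overlapped each other. Lung cells had 28.2 and 35.2 CPM, between the P0 Emcn− and the passaged libraries. BM MSC had 3.34 and 47.2 CPM, so that replicate 1 was below every passaged library and replicate 2 was within the range of P0 Emcn− BMECs. Every CPM value below is given in the same order of replicates.

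The microfibril genes were highest in P0 Emcn− BMECs or lung and lowest in P0 Emcn+ BMECs. Fbn1 (ENSMUSG00000027204, chromosome 2 from 125300594 to 125507993 on the minus strand) had 3159 and 2867 CPM in the P0 Emcn− fraction against 36.6 and 58.1 in the P0 Emcn+ fraction. The P1 libraries had 1204 and 960.4 CPM, the P2 libraries 1197 and 994, the P3 libraries 1309 and 1057 and the P4 library 1438, with 1267 and 1832 CPM in lung and 898 and 1681 CPM in BM MSC. Both P0 Emcn− libraries lay above all others, while the passaged, lung and BM MSC libraries overlapped.

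Fbn2 (ENSMUSG00000024598, chromosome 18 from 58008623 to 58210487 on the minus strand), the fibrillin known mainly from development, had 49.6 and 72.4 CPM in the P0 Emcn− fraction against 0.475 and 0.580 in the P0 Emcn+ fraction. Over the passages the values were 14.9 and 15.4 CPM (P1), 6.27 and 8.75 (P2), 3.50 and 5.85 (P3) and 7.75 (P4). In each batch the value at P2 was below P1 and the value at P3 was below P2, while P4 was above P3 of the same batch. Lung had 41.9 and 179 CPM, replicate 2 being the highest Fbn2 value of all libraries, and BM MSC had 35.7 and 18.5 CPM.

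Mfap5 (ENSMUSG00000030116, chromosome 6 from 122505845 to 122529290 on the plus strand) had 178 and 217 CPM in the P0 Emcn− fraction against 1.11 and 2.78 in the P0 Emcn+ fraction. Passaged cells had 118 and 100.4 (P1), 122 and 84.2 (P2), 129.8 and 82.8 (P3) and 129 CPM (P4), lung had 117 and 95.4 and BM MSC had 85.7 and 178 CPM. Both P0 Emcn− libraries lay above every passaged and lung library, which overlapped each other, and the BM MSC libraries lay 1 within the passaged range and 1 between it and the P0 Emcn− libraries. Ltbp4 (ENSMUSG00000040488, chromosome 7 from 27305136 to 27337692 on the minus strand) had 27.9 and 129.7 CPM in the P0 Emcn− fraction against 3.26 and 12.5 in the P0 Emcn+ fraction. Its values were 32.5 and 61.0 CPM (P1), 31.6 and 93.3 (P2), 28.3 and 79.9 (P3), 36.0 (P4), 31.8 and 53.1 (lung) and 46.5 and 50.7 (BM MSC). Replicate 2 had the higher Ltbp4 value in all 7 replicated populations, and the P0 Emcn− libraries alone enclosed every passaged, lung and BM MSC value.

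The fibulins showed 3 different patterns. Fbln1 (ENSMUSG00000006369, chromosome 15 from 85205949 to 85286535 on the plus strand) had 169.6 and 128 CPM in P0 Emcn− BMECs, 112 and 129 in BM MSC, 90.5 and 99.4 in lung and 3.07 and 3.09 in P0 Emcn+ BMECs. P1 cells had 29.0 and 47.6 CPM, P2 cells 17.6 and 46.4, P3 cells 13.5 and 36.2 and P4 cells 14.5. All passaged libraries lay below the lung, BM MSC and P0 Emcn− libraries, with replicate 2 higher than replicate 1 at each passage.

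Fbln2 (ENSMUSG00000064080, chromosome 6 from 91212455 to 91272540 on the plus strand) had 3230.1 and 1987 CPM in the P0 Emcn− fraction against 31.3 and 50.4 in the P0 Emcn+ fraction. The P1 libraries had 1417 and 1454 CPM, the P2 libraries 2202 and 2124, the P3 libraries 2990.3 and 2526 and the P4 library 2581, so that P1, P2 and P3 did not overlap and P4 lay in the range of P3. Lung had 1977 and 2259 CPM, overlapping with P0 Emcn− BMECs, and BM MSC had 432 and 1022 CPM, below every library other than P0 Emcn+.

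Fbln5 (ENSMUSG00000021186, chromosome 12 from 101746565 to 101819055 on the minus strand) was the member with its highest levels in BM MSC and P0 Emcn+ BMECs, at 524 and 379 CPM and 459 and 301 CPM. P0 Emcn− BMECs had 70.0 and 274 CPM and lung had 60.2 and 145 CPM. Replated cells had 87.2 and 105 CPM (P1), 50.6 and 84.8 (P2), 35.8 and 58.7 (P3) and 46.8 (P4). BM MSC and P0 Emcn+ BMECs overlapped with each other and with no other population, although P0 Emcn− replicate 2 came close to P0 Emcn+ replicate 2.

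Of the cross-linking enzymes, Lox (ENSMUSG00000024529, chromosome 18 from 52516067 to 52529867 on the minus strand) had 6753 and 5646 CPM in BM MSC, 3183 and 2430.0 in P0 Emcn− BMECs, 2499.8 and 2185 in lung and 59.2 and 58.5 in P0 Emcn+ BMECs. At P1 to P4 it stayed between 1282 and 1472 CPM over 7 libraries. BM MSC lay above all other libraries, and the passaged libraries lay below lung and P0 Emcn−, which overlapped. Loxl1 (ENSMUSG00000032334, chromosome 9 from 58287738 to 58313186 on the minus strand) had 765 and 482 CPM in P0 Emcn− BMECs, 436 and 391 in lung, 63.9 and 124 in BM MSC and 10.8 and 8.12 in P0 Emcn+ BMECs. It had 116 and 119 CPM at P1 and 69.8 to 88.6 CPM over the 5 libraries of P2 to P4. Unlike Lox, Loxl1 was in the same range in BM MSC as in passaged cells. In the annotation Eln, Fbn1, Fbn2 and Lox each overlap another gene (Gm30003, Gm9913, Gm26507 and AC161119.1), and whether counting used strand is not given in the sources used here, so reads of such pairs may not be separable.

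**Figure D1:**
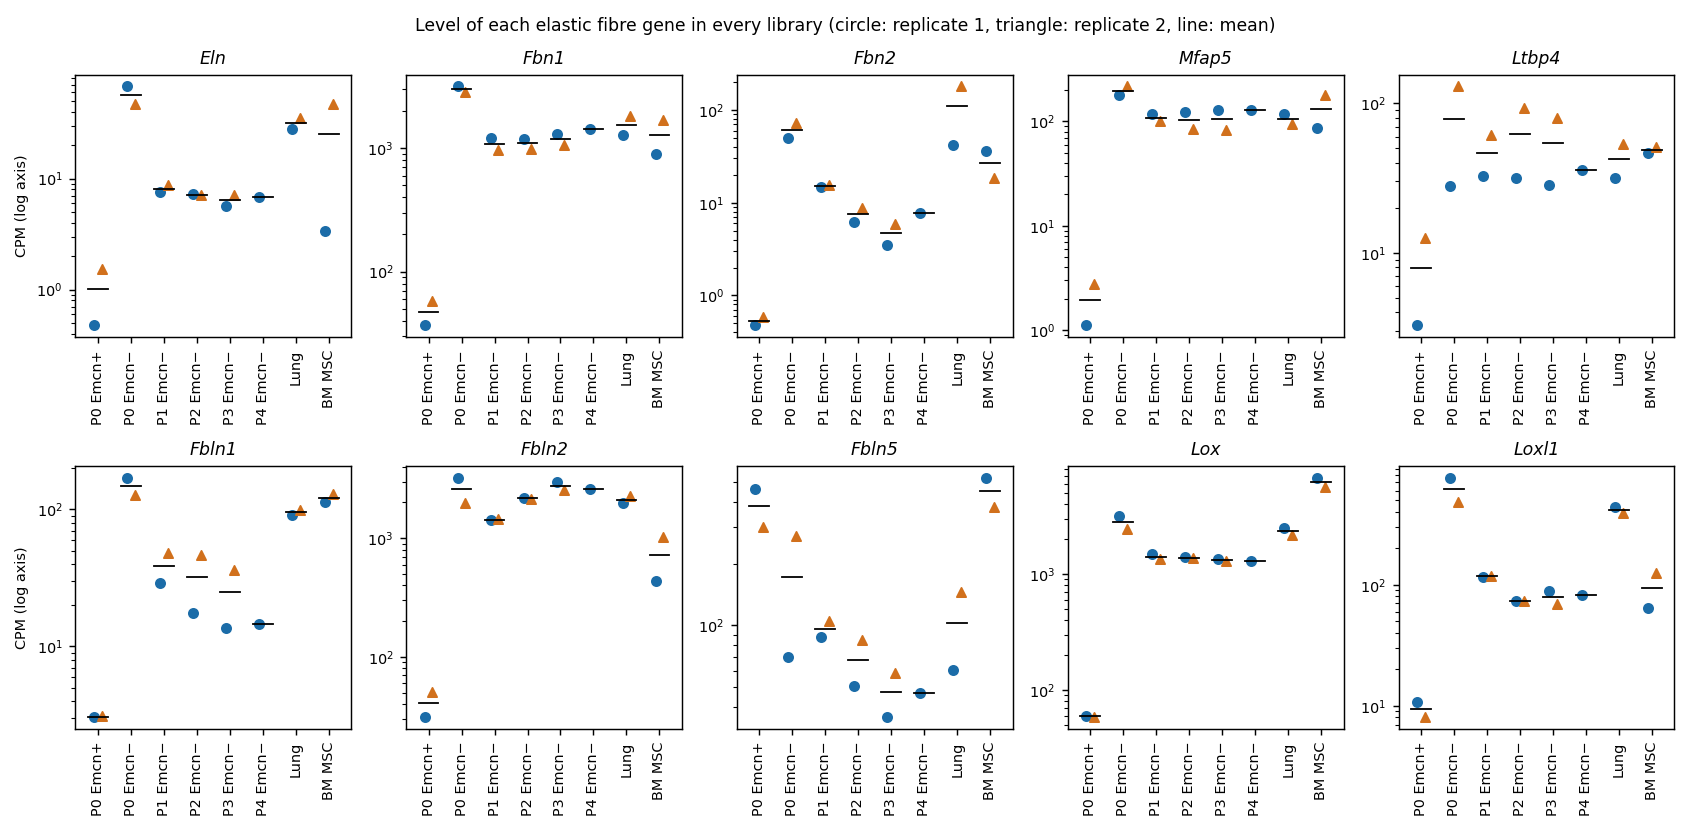
Level of each elastic fibre gene in every library. Each panel plots CPM on a log axis against the 8 populations, with a circle for replicate 1, a triangle for replicate 2 and a line for the mean; the P0 Emcn+ libraries are the lowest in 9 panels, and in the Fbln5 panel they stand at 459 and 301 CPM.

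The comparison of P0 Emcn+ with P0 Emcn− BMECs asked how the sorted fractions of P0 cultures differ. Of the 10 members 9 were lower in P0 Emcn+ BMECs and none was higher, where a call needed an adjusted p (Benjamini-Hochberg) under 0.05 in edgeR's quasi-likelihood test and a log2 fold change beyond 1.5 in either direction. Log2 fold changes are given ± standard error. Over all 19401 genes tested, 11.4% were called lower and 7.79% higher. The median log2 fold change of the members was -5.89, beside -0.06 over all genes tested. Fbn2 was 112-fold lower (log2 fold change -6.81 ± 0.754, adjusted p = 9.13e-05) and Mfap5 100.3-fold lower (log2 fold change -6.65 ± 0.539, adjusted p = 1.32e-05). Loxl1 was 64.2-fold, Fbln2 62.6-fold, Fbn1 62.3-fold and Eln 56.4-fold lower, with log2 fold changes of -6.00, -5.97, -5.96 and -5.82 and adjusted p values of 3.20e-06, 1.14e-05, 5.17e-06 and 0.0018. The standard error of the Eln value was 1.05, against 0.257 for Lox, which was 46.6-fold lower (adjusted p = 7.38e-07). Fbln1 was 47.2-fold lower (adjusted p = 6.00e-05). For these 8 genes the libraries of the populations were far apart.

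Ltbp4 had a smaller difference (log2 fold change -3.29 ± 0.895, adjusted p = 0.0168), and within the batches the log2 ratio of CPM was -3.10 and -3.38. It was no longer called when P0 Emcn+ replicate 1 was left out (-2.59, adjusted p = 0.108), when P0 Emcn− replicate 2 was left out (-1.80, adjusted p = 0.148) or when these 4 libraries alone were fitted (-3.28, adjusted p = 0.0716). Fbln5 was not called (log2 fold change 1.19 ± 0.593, adjusted p = 0.156). Its log2 ratio of CPM was 2.71 in the batch of replicate 1 and 0.14 in the batch of replicate 2, and it was called higher in P0 Emcn+ BMECs without P0 Emcn− replicate 2 (2.47, adjusted p = 0.0126). Beside the members, 10 of 10 endothelial markers were higher and 9 of 9 fibroblast and 4 of 8 mural markers lower in P0 Emcn+ BMECs, with 3 of 8 macrophage markers higher and 3 of 5 osteolineage markers lower. The macrophage list summed to 784 to 938 CPM in P0 Emcn+ and 230.0 to 257 CPM in P0 Emcn− BMECs, and the mural list to 17.6 to 107 and 216 to 350.5 CPM. No fibroblast marker was at 0 in either population; the part of these cell types in the result was not tested.

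The comparison of lung with P0 Emcn− BMECs asked how Emcn− cells from another organ differ from those of marrow. No member was called, where 2.13% of all genes tested were higher and 1.7% lower in lung. The median log2 fold change of the members was -0.63, beside 0 over all genes tested, and 1 of the 10 was positive. By the unadjusted p under 0.05, 1 member (Fbn1) differed, and DESeq2 with or without ashr shrinkage called 0. Fbn1 came to -0.90 ± 0.332 (adjusted p = 0.179), and it was below P0 Emcn− BMECs in both batches. Fbn2 came to 0.91 ± 0.552 (adjusted p = 0.44), which became -0.45 without lung replicate 2. The remaining 8 members lay between -0.82 (Mfap5) and -0.19 (Lox). Standard errors ran from 0.211 (Lox) to 0.825 (Eln), so that differences of the size fitted for Eln or Ltbp4 were not detectable with these libraries. The fibroblast markers summed to 13883 to 14684 CPM in lung, and 0 of 9 were called between these populations by the same edgeR test. The other lists did differ. In lung, 7 of 8 macrophage and 2 of 8 mural markers were lower, with Tek (1 of 10 endothelial) and Ibsp (1 of 5 osteolineage). The mural marker Cnn1 was higher. The endothelial list had a median log2 fold change of 1.53, with 8 of its 10 genes positive. The part of these lists in the result was not tested.

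BM MSC served as the mesenchymal comparison for the Emcn− cells. Against P0 Emcn− BMECs 2 of the 10 members were lower and none was higher, beside 7.45% of all genes lower and 11.3% higher. The median log2 fold change of the members was -0.83, beside 0.0053 over all genes tested. These populations share no batch, so that batch and population cannot be told apart here. Loxl1 was 6.26-fold lower (log2 fold change -2.65 ± 0.322, adjusted p = 2.94e-04) and Fbln2 3.39-fold lower (log2 fold change -1.76 ± 0.391, adjusted p = 0.0069). Lox went the other way, 2.36-fold higher with an adjusted p of 0.00197, under the fold limit (log2 fold change 1.24). Fbn1 was also under the limit, at -1.14 (adjusted p = 0.0239). Fbln5 had 1.497 (adjusted p = 0.0757) and was called higher by the DESeq2 Wald test (1.53, adjusted p = 0.0259). Without P0 Emcn− replicate 2 the Fbln5 value was 2.76. The Fbln2 call was lost with only the compared populations in the fit (adjusted p = 0.0886), without P0 Emcn− replicate 1 (log2 fold change -1.38) and without BM MSC replicate 1 (-1.29). Leaving out BM MSC replicate 2 brought in Eln (log2 fold change -3.99) and Fbn1 (-1.63) as lower. Of the BM MSC libraries, replicate 2 had the higher endothelial, mural and macrophage sums and the lower fibroblast and osteolineage sums. The number of members called was 1 without P0 Emcn− replicate 1 or without BM MSC replicate 1, 3 without P0 Emcn− replicate 2 and 4 without BM MSC replicate 2. The mural list, which rose in 4 of its 8 genes, summed to 1302 to 1669.6 CPM in BM MSC and 216 to 350.5 CPM in P0 Emcn− BMECs. The macrophage list, lower in 7 of 8 genes, summed to 24.2 to 35.1 and 230.0 to 257 CPM. The fibroblast list summed to 21852 and 11819 CPM in BM MSC and 17734 to 23211 CPM in P0 Emcn− BMECs. Of its 9 genes Lum was higher and Pdgfra lower. Alpl (osteolineage) was also higher and Tek (endothelial) lower. The part of these lists in the result was not tested.

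The passages asked what changes when Emcn− BMECs are taken from the P0 culture and replated. P0 and passaged libraries share no batch, so that batch and replating cannot be told apart here. At P1 3 members were lower than at P0 and none was higher, beside 3.07% of all genes tested lower and 5.77% higher. The median log2 fold change of the members was -1.08, beside 0.02 over all genes tested. Loxl1 was 4.77-fold lower (log2 fold change -2.25 ± 0.317, adjusted p = 0.00145), Fbn2 3.61-fold (log2 fold change -1.85 ± 0.569, adjusted p = 0.0496) and Fbln1 3.50-fold (log2 fold change -1.81 ± 0.477, adjusted p = 0.0292). The Fbn2 call was close to the threshold: its adjusted p was 0.0522 with RLE factors and 0.0943 to 0.202 with any 1 of the 4 libraries left out. The Fbln1 call held without P0 Emcn− replicate 2 and was lost without each of the other 3 libraries (adjusted p = 0.0724 to 0.183). With ashr shrinkage both calls were lost, at log2 fold changes of -1.42 (Fbln1) and -1.25 (Fbn2) under the fold limit. Of the 3 calls, the Loxl1 call held with each of the 4 libraries left out, so that 1 or 2 members remained called in these fits. Eln was not called (log2 fold change -2.67 ± 0.877, adjusted p = 0.0614), but was called with only these populations in the fit (adjusted p = 0.0114), with no filter (adjusted p = 0.025), with DESeq2 (adjusted p = 0.00727) and with ashr shrinkage (-1.71). Fbn1 at -1.32 (adjusted p = 0.0254) and Lox at -0.84 (adjusted p = 0.0253) passed the p limit and not the fold limit. Of the marker lists, 3 of 9 fibroblast (Col1a1, Col1a2, Col3a1), 3 of 8 mural, 3 of 5 osteolineage and 1 of 10 endothelial markers (Cdh5) were also lower at P1 and none was higher, and their part in the result was not tested. The fibroblast list summed to 6933 to 7487 CPM at P1, the mural list to 76.5 to 76.8 CPM against 216 to 350.5 in P0 Emcn−, and the osteolineage list to 22.2 to 22.3 against 51.9 to 185.

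At P3 4 members were lower than at P0 Emcn− and none was higher, beside 5.16% of all genes lower and 8.03% higher. The median log2 fold change of the members was -1.41, beside 0.003 over all genes tested. Here too batch and passage cannot be told apart. Fbn2 was 11.5-fold lower (log2 fold change -3.52 ± 0.614, adjusted p = 0.0031), Loxl1 6.87-fold (log2 fold change -2.78 ± 0.324, adjusted p = 3.39e-04), Fbln1 5.31-fold (log2 fold change -2.41 ± 0.488, adjusted p = 0.0067) and Eln 7.92-fold (log2 fold change -2.99 ± 0.891, adjusted p = 0.0347). The Eln call was lost with the replicate block (log2 fold change -3.02, adjusted p = 0.0505) and without P0 Emcn− replicate 1, P3 replicate 1 or P3 replicate 2 (adjusted p = 0.106 to 0.171). Fbln2, the most abundant member of passaged cells from P2 on, had 0.27 (adjusted p = 0.62). Fbln5 had -1.67 (adjusted p = 0.0665), and -2.34 without P0 Emcn− replicate 1. It passed with the DESeq2 Wald test (-1.66, adjusted p = 0.0246) and with no filter (-1.66, adjusted p = 0.0309). It also passed with library totals in place of TMM factors (-1.86, adjusted p = 0.0462). The library totals moved the median log2 fold change of all genes by -0.16 for P1 and -0.19 for P3 relative to TMM. Between P0 Emcn− and P3, 3 of the 9 fibroblast markers (Col1a1, Col1a2, Col3a1), 7 of 8 macrophage, 4 of 10 endothelial, 3 of 5 osteolineage and 1 of 8 mural markers (Acta2) were also lower, and their part in the result was not tested. The macrophage list summed to 230.0 to 257 CPM in P0 Emcn− and 15.1 to 19.1 CPM in P3 Emcn− BMECs.

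Between P1 and P3 no member was called, where 0.144% of all genes were lower and 0.0773% higher at P3. The median log2 fold change of the members was -0.19, beside -0.01 over all genes tested. By the unadjusted p under 0.05, 2 members (Fbn2 and Fbln2) differed, and DESeq2 with or without ashr shrinkage called 0. Fbn2 had a log2 fold change of -1.67 (adjusted p = 0.246), with log2 ratios of CPM of -2.09 and -1.39 within the batches, and Fbln2 had 0.98 (adjusted p = 0.302), with 1.08 and 0.80. Both genes thus moved the same way in both batches by amounts that did not pass the test over all genes. Fbln5 had -0.996, Fbln1 -0.60 and Loxl1 -0.53, each lower in both batches. A linear slope per passage over P1 to P4 with the replicate block, chosen after seeing the data, called 0 members, beside 0.175% of all genes rising and 0.0619% falling at an adjusted p under 0.05. The lowest p was that of Fbln1, at -0.26 on the log2 scale per passage (standard error 0.0791, unadjusted p = 0.0108, adjusted p = 0.222). With 2 libraries at P1 to P3 and 1 at P4, changes of this size were not detectable over all genes.

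Set against the mean of P1, P2 and P3, BM MSC had 4 members higher and 1 lower, beside 8.42% of all genes higher and 5.81% lower. The median log2 fold change of the members was 0.93, beside 0.0077 over all genes tested. Fbln5 was 6.31-fold higher (log2 fold change 2.66 ± 0.434, adjusted p = 0.00143), Lox 4.25-fold (log2 fold change 2.09 ± 0.158, adjusted p = 2.43e-05), Fbln1 3.65-fold (log2 fold change 1.87 ± 0.349, adjusted p = 0.00291) and Fbn2 3.17-fold (log2 fold change 1.66 ± 0.422, adjusted p = 0.0136). Fbln2 was 3.03-fold lower (log2 fold change -1.60 ± 0.344, adjusted p = 0.00606). With the replicate block 3 members remained called, since Fbn2 (1.49) and Fbln1 (1.41) came under the fold limit. Without BM MSC replicate 1 the Fbn2 (1.08, adjusted p = 0.199) and Fbln2 (-1.12, adjusted p = 0.0533) calls were lost and Eln was called higher (2.60, adjusted p = 0.00109). Eln had 1.70 (adjusted p = 0.0636) in all libraries. It was called higher by the DESeq2 Wald test (1.73, adjusted p = 0.0271) and with no filter (1.69, adjusted p = 0.0295). Without BM MSC replicate 2 it had -1.17, so the direction of Eln rested on 1 BM MSC library. In the batch that holds both BM MSC libraries and replicate 2 of P1 to P3, Lox was higher by 2.34 and 2.08 and Fbln5 by 2.70 and 2.24 on the log2 scale of CPM. BM MSC also had higher levels of 5 of 8 mural, 7 of 10 endothelial, 4 of 5 osteolineage and 3 of 9 fibroblast markers than passaged cells. Lower in BM MSC were 4 of 8 macrophage markers, 1 endothelial marker (Tek) and 1 fibroblast marker (Pdgfra). The endothelial list summed to 42.7 CPM in BM MSC replicate 1 and 362 in replicate 2, against 44.8 to 70.4 CPM at P1 to P4. The mural list summed to 1302 and 1669.6 CPM in the same BM MSC libraries, against 76.5 to 196 CPM at P1 to P4. The part of these lists in the result was not tested. The passaged libraries are common to this and the preceding comparisons, and P0 Emcn− BMECs are common to 5 of the 7.

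**Figure D2:**
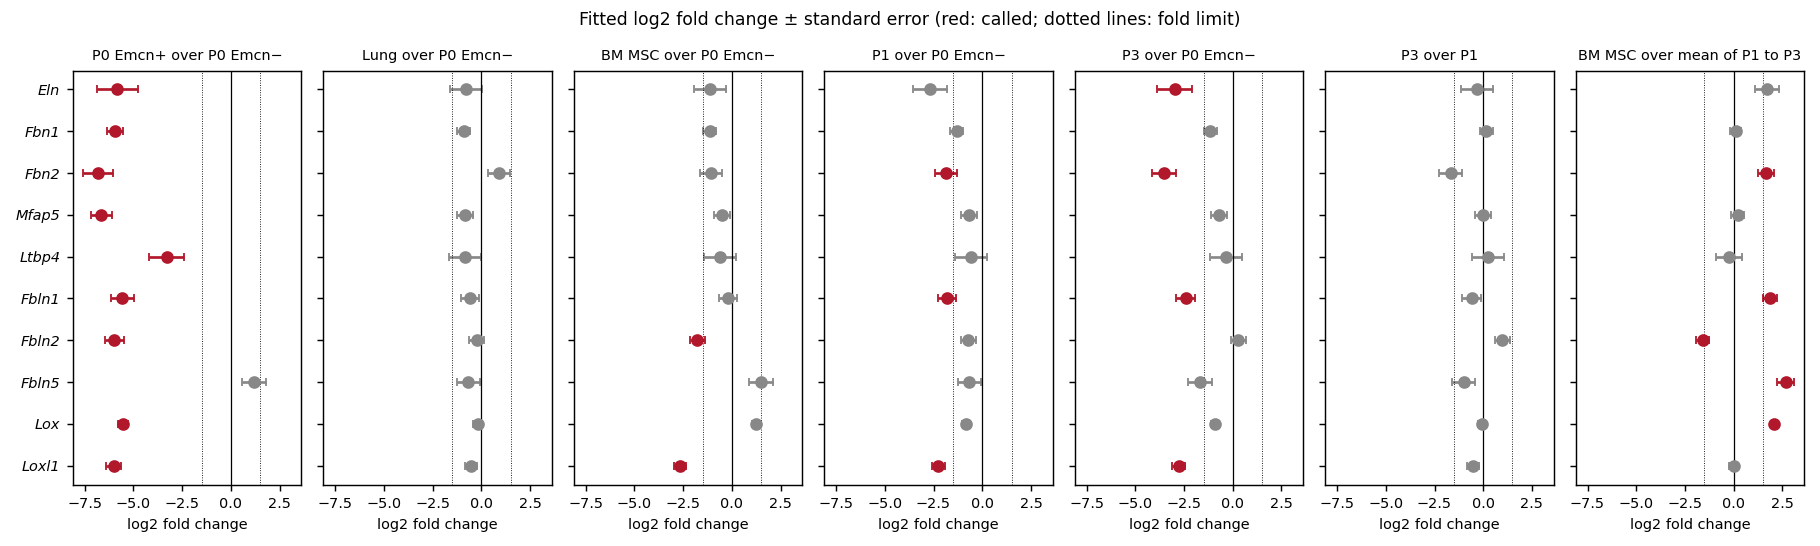
Fitted log2 fold change of the 10 members in 7 comparisons. Points are edgeR estimates with bars of 1 standard error, red where called, and dotted lines mark the fold limit of 1.5 on the log2 scale; 9 of 10 points are red in the leftmost panel, at -6.81 (Fbn2) to -3.29 (Ltbp4), and none in the panels for lung and for P3 over P1.

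The members together held 0.0497% to 0.0606% of all counts in P0 Emcn+ BMECs, 0.863% to 1.09% in P0 Emcn−, 0.422% to 0.596% at P1 to P4, 0.655% to 0.727% in lung and 0.895% to 0.928% in BM MSC. To compare genes with each other, CPM was divided by the exon length of each gene in kb. On this scale Lox was the most abundant member in P0 Emcn− BMECs (666 and 509 CPM per kb in its 2 libraries), lung, P1 and BM MSC, Fbln2 led at P2, P3 and P4, and Fbln5 led in P0 Emcn+ BMECs. By the mean of the libraries, Eln and Fbn2 were the lowest in P0 Emcn+, P0 Emcn−, BM MSC and every passage, and Eln with Ltbp4 in lung, while in P0 Emcn− replicate 1 Ltbp4 was below Eln and in lung replicate 1 Fbn2 was below both. P0 Emcn+ BMECs had 66.5 and 43.6 CPM per kb of Fbln5, against 12.4 and 12.3 of Lox, the next member.

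The make-up of the set therefore differed between populations. Fbln5 was 72.5% and 58.4% of the summed CPM per kb of the 10 genes in P0 Emcn+ BMECs, 0.568% and 2.91% in P0 Emcn−, and 4.43% and 3.29% in BM MSC. Lox was 82.6% and 70.9% in BM MSC and 37.4% and 37.3% in P0 Emcn−. Fbln2 was 28.5% and 22.9% in P0 Emcn− BMECs, 30.7% and 33.0% in P1 cells, 42.8% and 42.3% in P2 cells, 50.1% and 48.0% in P3 cells and 46.4% in the P4 library. These shares are of a fixed set, so that a larger share of 1 gene lowers the others. Within the enzyme pair, the ratio of Lox to Loxl1 per length was 2.87 to 3.48 in P0 Emcn−, 3.86 to 3.96 in lung, 3.77 to 4.98 in P0 Emcn+, 7.80 to 13.1 at P1 to P4 and 31.3 to 72.9 in BM MSC. The ranges of passaged cells and BM MSC overlapped neither each other nor any other population. The ratio of Fbn1 to Fbn2 per length was 43.1 to 69.3 in P0 Emcn−, 68.2 to 87.8 at P1, 124 to 208 at P2, 197 to 408 at P3 and 202 at P4. It was 11.1 to 32.9 in lung, 84.0 to 109 in P0 Emcn+ and 27.4 to 99.0 in BM MSC. The P0 Emcn+ and BM MSC ranges both overlapped with P1. The ratio of Fbln2 to Fbln5 had a wider range, from 0.0740 to 0.181 in P0 Emcn+ BMECs and 0.895 to 2.93 in BM MSC to 46.7 to 90.7 at P3. In P0 Emcn− BMECs it was 7.87 to 50.1, which overlapped with P3. These ratios were chosen with the levels known and are given without a test.

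**Figure D3:**
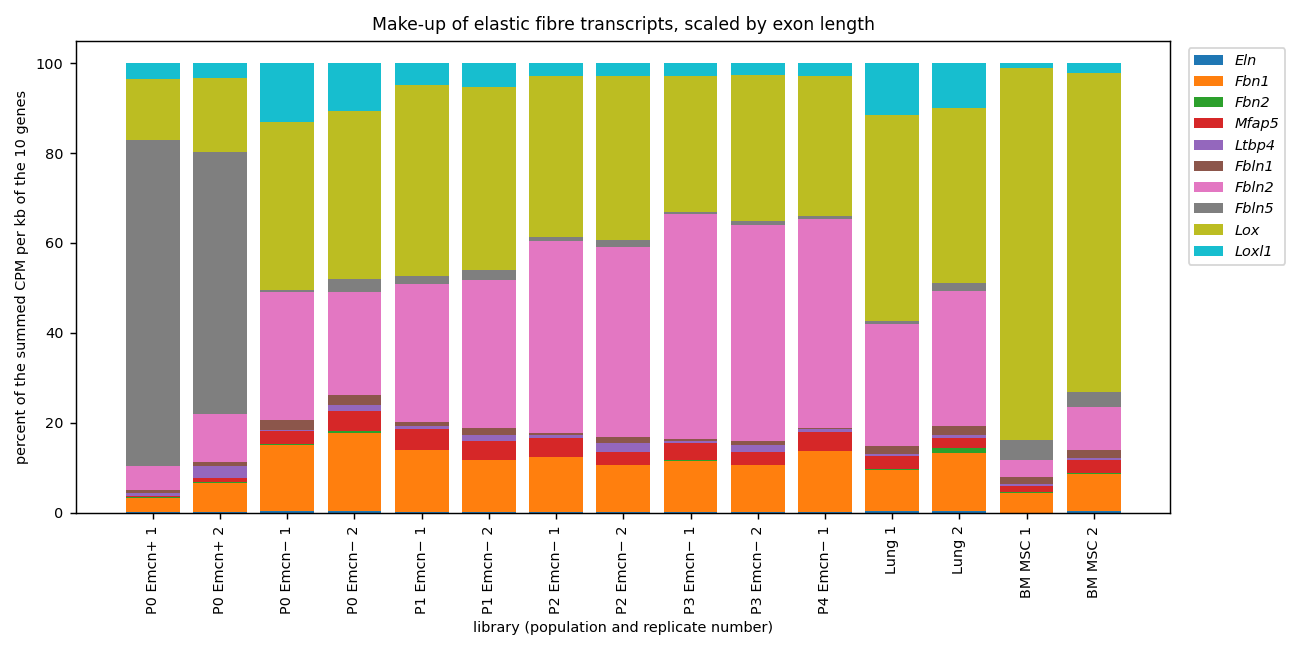
Make-up of the elastic fibre transcripts in each library. Stacked bars give each gene's percent of the summed CPM per kb of the 10 genes in the 15 libraries; Fbln5 takes 72.5% and 58.4% of the P0 Emcn+ bars, Lox 82.6% and 70.9% of the BM MSC bars and Fbln2 50.1% and 48.0% of the P3 bars.

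Across the 8 population means of log2(CPM + 1), 37 of the 45 pairs of members had a positive Pearson r. All 36 pairs without Fbln5 were positive, with a median r of 0.82, while the 9 pairs with Fbln5 ran from -0.75 to 0.06. These correlations describe 8 points that share libraries and the low P0 Emcn+ values. The genes most like Eln in this profile were Sec16b (r = 0.99), Ube2d-ps (0.98) and Isoc1 (0.98), and those most like Fbn1 were Klhl22 (0.99), Bcl9l (0.99) and Col6a2 (0.99), the last a chain of collagen VI. By Spearman's rho the same genes had 0.88 to 0.98 for Eln and 0.69 to 0.93 for Fbn1.

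The other genes of elastic fibre assembly were listed in 3 groups: 17 microfibril and elastin-associated proteins, 5 helpers of cross-linking (other lysyl oxidases, Bmp1, which processes pro-Lox, and the copper transporter Atp7a) and 7 proteases that degrade elastin. Values in the paragraphs on these groups are log2 fold changes of the same edgeR fit. In P0 Emcn+ against P0 Emcn− BMECs 12 of the 17 associated proteins were lower and 1 was higher, beside 11.4% and 7.79% of all genes. The gene with the lowest fitted value was Mfap4, which binds elastin and fibrillin (adjusted p = 6.30e-04). It had 0.0951 and 0 CPM in the P0 Emcn+ fraction against 22.8 and 4.24 in the P0 Emcn− fraction, which is 3 counts against 947 and a ratio of 365 (exact 95% counting interval 125 to 1774). The interval covers counting error only, while the P0 Emcn− libraries differed 5.38-fold in Mfap4. The higher gene was Hmcn1 (hemicentin-1, related to fibulins), at 2.97 (adjusted p = 0.0012), with 82.9 and 89.6 against 15.5 and 6.56 CPM. Of the cross-linking helpers 2 of 5 were lower, led by Loxl3 (-4.13, adjusted p = 3.48e-06). Of the proteases 3 of the 5 tested were lower, led by cathepsin K, Ctsk (-4.82, adjusted p = 4.24e-05), and Mmp7 and Elane had too few counts to be tested.

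In lung against P0 Emcn− BMECs, Hmcn1 (2.88, adjusted p = 0.00994) was the associated protein called higher of 17 and Loxl4 (1.73, adjusted p = 0.0238) the cross-linking helper called higher of 5, beside 2.13% of all genes higher, while 2 of 5 proteases were lower, beside 1.7%, led by Mmp9 (-6.73, adjusted p = 0.00634), which had 2 counts in each lung library. In BM MSC against P0 Emcn− BMECs 2 of the 17 were higher, led by the fibrillin-binding protein Thsd4 (3.87, adjusted p = 0.00496), and 3 were lower, led by Emilin2 (-2.81, adjusted p = 0.00147), beside 11.3% and 7.45% of all genes. The 2 of 17 are about the share of all genes. Batch and population cannot be told apart in this comparison of BM MSC with P0 Emcn− BMECs. The helpers had 2 of 5 lower, led by Bmp1 (-1.92, adjusted p = 6.66e-04), and the proteases 2 of 5 lower, led by Ctss (-7.88, adjusted p = 1.16e-04), which had 0 and 7 counts in the BM MSC libraries. Cathepsin S is also made by macrophages, and the macrophage list fell from 230.0 to 257 CPM in P0 Emcn− BMECs to 24.2 to 35.1 in BM MSC and 22.3 to 24.9 in lung; its part in the protease values was not tested.

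In passaged cells Efemp1 (fibulin-3) was the associated protein with the largest rise. It had 268 and 785 CPM in P0 Emcn−, 2250.3 and 1920.0 (P1), 3387 and 2787 (P2), 4078 and 3373 (P3) and 4286 (P4) after replating, against 25.6 and 82.7 in P0 Emcn+ BMECs 1242 and 1736 in lung and 179 and 169 in BM MSC. Every passaged library lay above every other library, and both lung libraries lay above the P0 and BM MSC libraries. Its log2 fold change was 2.15 at P1 (adjusted p = 0.0289) and 3.02 at P3 (adjusted p = 0.00533). Batch and passage cannot be told apart in these comparisons of P1 and P3 with P0. At P1 1 of the 17 was higher, about the 5.77% of all genes, and 3 were lower, beside 3.07%, led by Mfap4 (-4.24, adjusted p = 0.0119). At P3 2 were higher and 3 lower, led again by Mfap4 (-3.98, adjusted p = 0.01), beside 8.03% and 5.16% of all genes. No cross-linking helper was called at P1 or P3, while 2 and 3 of the 5 proteases were lower, led by the gelatinase Mmp9 (adjusted p = 0.00182 and 0.00103). Mmp9 had 10.9 and 5.55 CPM in P0 Emcn− BMECs, 488 counts in all, against 2 counts at P1 and 1 at P3. The ratio of P0 Emcn− to P1 was 302 (exact 95% counting interval 83.2 to 2503) and that to P3 was 614 (109.7 to 24303). These intervals cover counting error only and not the spread between libraries. The macrophage list summed to 230.0 to 257 CPM in P0 Emcn− BMECs, with 0 of 8 markers called at P1 and 7 of 8 lower at P3. Its part in these protease values was not tested. Between P1 and P3, Ctss was lower (-4.51, adjusted p = 0.0336) and no other gene of the 3 groups was called by this test, beside 0.144% of all genes lower. The macrophage markers Adgre1, Lyz2 and Mrc1 were also lower at P3 (3 of 8, median of the list -2.87), and their list summed to 79.9 to 241 CPM at P1 and 15.1 to 19.1 at P3; its part in the Ctss value was not tested. In BM MSC against the mean of P1 to P3, 5 of the 17 were higher, led by Mfap4 (3.59, adjusted p = 0.00141), and 3 were lower, led by Efemp1 (-4.15, adjusted p = 6.08e-04), beside 8.42% and 5.81% of all genes. The helpers had 0 of 5 called there, and of the proteases Mmp9 was higher (3.72, adjusted p = 0.00574, with 8 and 29 counts in BM MSC and 0 to 5 in each library of P1 to P3) and Ctss lower (-4.48, adjusted p = 0.00168).

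**Figure D4:**
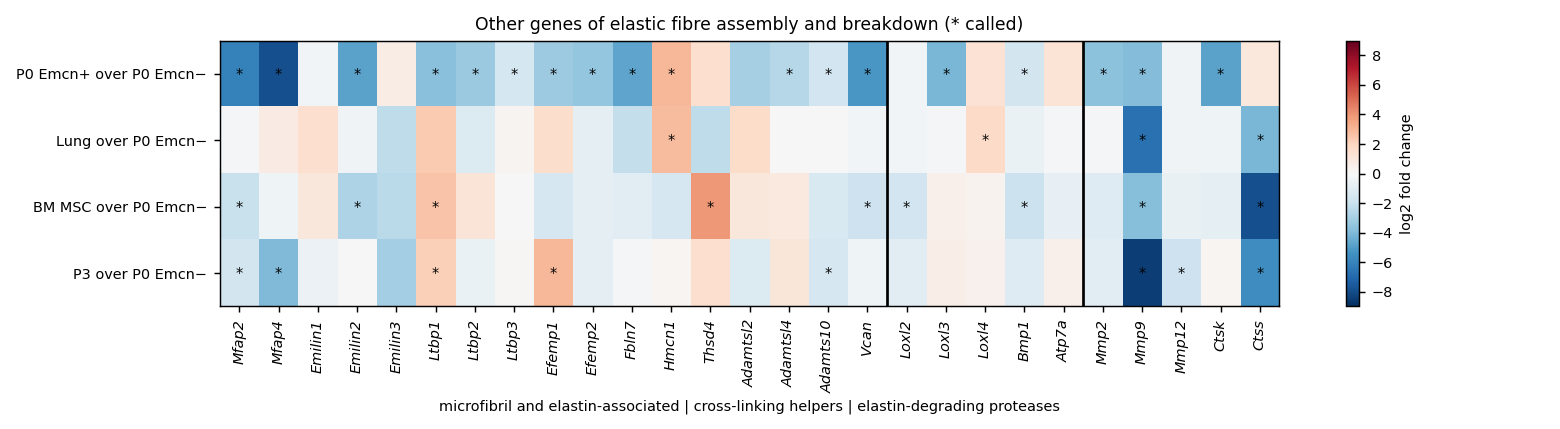
Other genes of elastic fibre assembly and breakdown. Colour gives the fitted log2 fold change on a scale from -9 to 9 and an asterisk a called gene, for 27 tested genes in 4 comparisons; 18 genes carry an asterisk in the row of P0 Emcn+ over P0 Emcn−, of which Hmcn1 is red, and Efemp1 is red at P3 (3.02).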

How the data were processed

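RNA of sorted mouse cells was sequenced in 15 libraries of 8 populations. By the study's methods, the authors mapped reads to GRCm38 with STAR, estimated transcript abundance with Salmon and merged the estimates per gene; they deposited whole-number counts without normalization for 44674 genes, and the rounding is not described. Groups, replicates and batches came from the labels. CPM used library totals, and CPM per kb the exon length in GENCODE M21 (GRCm38), which holds 44118 of the identifiers. Promoters came from RefSeq.

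Counts were tested in R 4.3.3 with edgeR 4.0.16: TMM factors, filterByExpr (minimum count 10, total 15), quasi-likelihood fit on all 15 libraries with 1 coefficient per population, Benjamini-Hochberg adjustment over 19401 genes, call at adjusted p under 0.05 and absolute log2 fold change above 1.5. The fit had 7 residual and 3.07 prior degrees of freedom. The standard error is the log2 fold change divided by the square root of F. Replicates differed by more than counting noise in all 7 replicated populations (chi-square per degree of freedom 39.1 to 130.9). By the study's reporting summary, biological replicates were cultures begun from different animals, while the labels do not tie libraries to animals.

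Alternatives were the DESeq2 1.42.0 Wald test, ashr 2.2.63 shrinkage, RLE factors, library totals, no filter, at least 50 counts in 2 libraries, a replicate block, only the compared groups, no fold limit and each library left out; the slope over passages was added after seeing the data. Among P0 and lung libraries and among passaged libraries, same-numbered libraries share a batch by the labels, which the block followed, and deviations correlated by 0.139 to 0.209 (P0 and lung) and 0.354 to 0.451 (passaged). The pipeline was tested on simulated data with known changes, the same dispersion for every gene and no batch differences. That test does not bear on the batches or the replicate spread of these libraries. The members, lists and tests were chosen with earlier results of these data known. Named are all members, and of the other lists the called gene with the largest change in each direction per comparison.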

Additional observations from a re-analysis of the deposited data

How the results depend on the processing

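Of the comparisons of single members under alternatives other than leaving out a library, 596 kept direction and call, 16 gained a call, 11 lost one and 7 changed direction, none of these a called value; with each library left out the numbers were 271, 6, 16 and 27. A lone library left in a population was assumed to vary like the others. The cause of the changes was not tested.

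With only the compared populations in the fit, 145 genes were called for lung, 2396 for BM MSC, 968 for P1 and 1704 for P3, each against P0 Emcn− BMECs, and 153 for P3 against P1; 1 member was called for BM MSC. Without a fold limit 6609 genes were called for P0 Emcn+ against P0 Emcn−, 6853 for BM MSC (4 members), 3387 for P1 (5 members), 4896 for P3 and 6206 for BM MSC against passaged cells. In place of 43 genes for P3 against P1, DESeq2 called 305, ashr 149, no filter 170 and the replicate block 106. In BM MSC against passaged cells 3 members were called with ashr and 3 with the replicate block, which changed no other member's call beside that of Eln at P3. The lists most like Eln and Fbn1 change if ranked by Spearman's rho.

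The values near 0 that changed direction were Mfap5 at P3 against P1 (-0.0376 with library totals and -0.0353 with the replicate block) and Loxl1 in BM MSC against passaged cells (0.0157 with DESeq2, 0.00942 with ashr, 0.0155 with RLE factors, 0.0936 with library totals and 0.0638 with the replicate block).

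Leaving out single libraries, the log2 fold changes that crossed 0 were, in lung, Fbn2 (-0.45 to 1.60), Fbln2 (-0.56 to 0.17), Fbln5 (-1.42 to 0.60), Lox (-0.39 to 0.0232) and Ltbp4 (-1.54 to 0.65); in BM MSC, Fbln1 (-0.43 to 0.00304) and Ltbp4 (-1.33 to 0.86); at P1, Fbln5 (-1.36 to 0.59) and Ltbp4 (-1.33 to 0.87); at P3, Fbln2 (-0.0461 to 0.68) and Ltbp4 (-1.24 to 1.12). At P3 against P1 they were Fbn1 (-0.0343 to 0.36), Mfap5 (-0.40 to 0.32), Lox (-0.15 to 0.0280) and Ltbp4 (-0.65 to 0.78), and in BM MSC against passaged cells Eln (-1.17 to 2.60), Fbn1 (-0.39 to 0.46), Mfap5 (-0.38 to 0.62), Loxl1 (-0.53 to 0.37) and Ltbp4 (-0.43 to 0.0811). The genes called numbered 406 to 675 for lung, 805 to 2196 for P1, 1414 to 2492 for P3 and 0 to 41 for P3 against P1, and the members called 1 to 4 for BM MSC and 1 to 2 for P1. With 2 libraries per population and 3.07 prior degrees of freedom, Eln and Ltbp4 had the largest standard errors of the members, and differences of their size could go undetected.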
